A study of Homo sapiens with 4 samples.

Results

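Binding of SOX2 and of its isolated DNA-binding domain (SOX2-DBD) was examined at 10 genes of the transforming growth factor beta (TGF-beta) pathway, which were the ligand genes TGFB1, TGFB2 and TGFB3, the receptor genes TGFBR1, TGFBR2 and TGFBR3, and the signal transducers SMAD2, SMAD3, SMAD4 and SMAD7. All CUT&RUN intervals that overlapped a gene body or the 50 kb on either side of it (hg19, GENCODE release 44 gene records) were collected, which gave 65 of the 58827 intervals listed in all. In CUT&RUN an antibody guides a nuclease to the protein of interest on chromatin, and the fragments it cuts free are sequenced. The cells were BJ, an established line of human foreskin fibroblasts, and an antibody to the V5 tag was used after 48 h of ectopic expression of V5-tagged SOX2 or V5-tagged SOX2-DBD. Each group had 2 samples, and the peak lists analysed belong to replicate 1 of each.

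The labels give neither the vector nor the promoter that drove expression, and libraries without a tagged protein were not analysed here. Nothing in the peak lists measures expression, so the fibroblast label was not checked against marker genes. With 1 list per group there is no error between replicates and no test between the groups, and library depth is unknown. Intervals of the SOX2 list were classed as shared where they overlapped an interval of the SOX2-DBD list by at least 1 bp, and otherwise as SOX2-only. SOX2-DBD-only intervals were those of the SOX2-DBD list that overlapped none of the SOX2 list. The 65 intervals comprised 46 SOX2-only, 18 shared and 1 SOX2-DBD-only interval, against 43607, 14300 and 920 in the whole lists. A shared interval carries the same signal values in both lists, and the library they were measured in is not stated, so signal was used only to describe and rank intervals within a class.

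TGF-beta ligands are secreted in latent form and, once released, bind the receptor kinase TGFBR2, which recruits and phosphorylates TGFBR1. TGFBR1 then phosphorylates SMAD2 and SMAD3, which join SMAD4 and act on genes in the nucleus, while SMAD7 inhibits the receptors as a feedback regulator. In fibroblasts the pathway is known for inducing collagen and other matrix genes and the contractile program of myofibroblasts. SOX2 is a pluripotency and neural transcription factor that binds DNA through its HMG box, the domain kept in SOX2-DBD.

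The sequences shown are the 200 bases at the centre of the strongest shared interval inside 6 of the gene bodies, which are places within these genes listed for both proteins, and at the centre of the SOX2-DBD-only interval. They are read from the plus strand of hg19, 5′ to 3′. Capitals mark the SOX core motif (ACAAAG or ACAATG) and the AP-1 motif (TGACTCA), each on either strand. AP-1 is the FOS and JUN family of factors active in fibroblasts.
TGFB2, shared, chr1:218524353-218524552: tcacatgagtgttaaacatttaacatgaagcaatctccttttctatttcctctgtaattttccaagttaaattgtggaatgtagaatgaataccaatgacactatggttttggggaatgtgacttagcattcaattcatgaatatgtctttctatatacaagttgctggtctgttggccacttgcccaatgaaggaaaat
TGFBR1, shared, chr9:101897377-101897576: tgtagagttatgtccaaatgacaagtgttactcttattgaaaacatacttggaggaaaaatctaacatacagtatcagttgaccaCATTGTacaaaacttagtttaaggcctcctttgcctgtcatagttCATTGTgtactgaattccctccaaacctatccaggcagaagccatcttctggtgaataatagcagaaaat
TGFBR2, shared, chr3:30700808-30701007: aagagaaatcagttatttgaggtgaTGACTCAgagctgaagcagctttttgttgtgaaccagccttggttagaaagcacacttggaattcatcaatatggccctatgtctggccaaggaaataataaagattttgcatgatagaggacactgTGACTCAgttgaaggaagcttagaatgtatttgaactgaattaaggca
SMAD2, shared, chr18:45407963-45408162: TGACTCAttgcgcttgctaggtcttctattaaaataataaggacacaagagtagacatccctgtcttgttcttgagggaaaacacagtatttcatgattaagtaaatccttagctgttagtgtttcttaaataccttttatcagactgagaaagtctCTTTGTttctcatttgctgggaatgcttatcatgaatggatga
SMAD3, shared, chr15:67401455-67401654: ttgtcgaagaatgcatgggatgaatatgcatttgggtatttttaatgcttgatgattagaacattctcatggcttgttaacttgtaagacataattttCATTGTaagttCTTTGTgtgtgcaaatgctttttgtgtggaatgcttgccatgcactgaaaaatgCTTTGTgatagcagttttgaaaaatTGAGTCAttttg
SMAD4, shared, chr18:48597042-48597241: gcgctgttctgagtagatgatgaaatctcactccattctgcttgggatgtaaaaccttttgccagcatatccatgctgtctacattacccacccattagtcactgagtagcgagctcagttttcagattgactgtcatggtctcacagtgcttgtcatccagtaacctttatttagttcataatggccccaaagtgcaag
SMAD3, SOX2-DBD-only, chr15:67366433-67366632: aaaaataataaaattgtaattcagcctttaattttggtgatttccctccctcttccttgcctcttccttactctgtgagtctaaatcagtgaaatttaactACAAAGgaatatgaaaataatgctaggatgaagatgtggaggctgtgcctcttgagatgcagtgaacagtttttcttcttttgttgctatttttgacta
Of the 6 shared windows, those of SMAD2 and SMAD3 held both motifs, that of TGFBR1 held the SOX core motif alone and that of TGFBR2 held the AP-1 motif alone. Those of TGFB2 and SMAD4 held neither. The SMAD3 window had 3 SOX core matches and the TGFBR2 window 2 AP-1 matches. A match is a description of the letters, and its absence says only that these letters are not in this window.

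All 10 genes had at least 1 SOX2 interval (SOX2-only or shared) in their window, as did 69.5% of the 20136 protein-coding genes treated in the same way. SOX2-only intervals were present at 9 of the 10 genes (65.1% of all protein-coding genes), shared intervals at 8 (37.7%) and a SOX2-DBD-only interval at 1 (4.73%). The windows of the pathway genes were longer than usual, with a median of 172.0 kb against 127.2 kb, so densities are given per 100 kb of window. The median density of SOX2 intervals was 3.27 per 100 kb over the 10 genes and 1.19 per 100 kb over all protein-coding genes. For shared intervals the medians were 0.648 and 0 per 100 kb, the latter because only 37.7% of all genes had a shared interval. Pooled over the summed windows the contrast was smaller. It was 3.40 against 2.17 per 100 kb for SOX2 intervals and 0.957 against 0.501 for shared intervals. In 8 of the 10 genes the density of SOX2 intervals was above the median of all protein-coding genes, and in 5 it was above their 75th percentile of 3.06 per 100 kb.

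**Figure D1:**
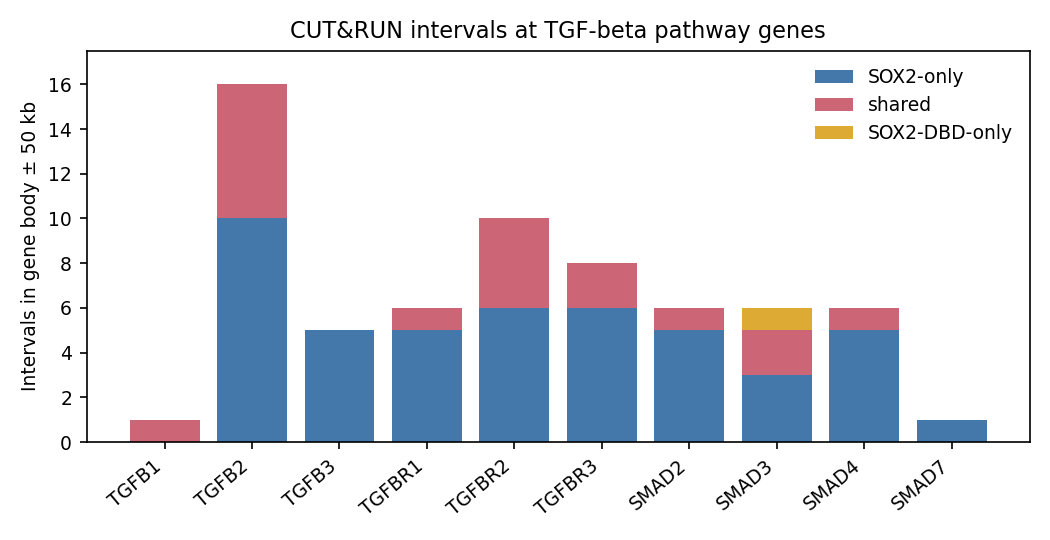
Number of SOX2-only (blue), shared (red) and SOX2-DBD-only (yellow) intervals in the gene body and 50 kb on either side of each of the 10 genes. TGFB2 has the tallest bar, with 16 intervals, while TGFB1 and SMAD7 have 1 each.

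Of the 64 SOX2 intervals in these windows, 18 were shared with SOX2-DBD (28.1%, Wilson 95% confidence interval 18.6 to 40.1, counting error only). Over the whole SOX2 list the shared portion was 24.7%, which lies inside that interval. TGFB2 contributed 6 of the 18, and without it 25.0% of the intervals were shared. The shared portion at the pathway genes was therefore near that of the list as a whole.

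In these windows the ligand genes differed most. TGFB2 had 10 SOX2-only and 6 shared intervals in a window of 199.3 kb, or 8.03 SOX2 intervals per 100 kb (exact Poisson 95% interval 4.59 to 13.04, counting error only), and 98.5% of all protein-coding genes had a lower density. TGFB3 had 5 SOX2-only intervals and no shared one, or 4.003 per 100 kb (1.3 to 9.34). TGFB1, the ligand most widely produced by cells, had 1 shared interval and no SOX2-only interval, or 0.656 per 100 kb (0.0166 to 3.66). The counting intervals of TGFB2 and TGFB1 do not overlap, whereas that of TGFB3 overlaps both. Base composition differed along with these densities. GC content was 39.96% over the TGFB2 window, 43.0% over TGFB3 and 50.8% over TGFB1.

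TGFB2 lies on the plus strand at chr1:218518678-218617961. Of its 6 shared intervals, 4 lay in introns of the gene, at 5.78, 25.0 and 28.7 kb from the start in intron 1 and at 76.3 kb in intron 2. The other 2 lay past the end of the gene, at 134.5 and 142.7 kb from its start, over the non-coding gene LINC02869. Their total signals, in that order, were 5118, 3295, 1407, 4114, 4770 and 1233, so 4 of the 6 were above the median of all shared intervals (2742) and the weakest was near the lowest value of that class (1184). The highest, chr1:218524122-218524784, was also the strongest shared interval at any of the 10 genes. The SOX2-only intervals before the start of TGFB2, at 36.3 and 37.9 kb, lay within the neighbouring gene RRP15. The farther of them overlapped RRP15 coding sequence. The strongest SOX2-only interval of TGFB2 lay past the gene, at chr1:218630177-218631336, with a total signal of 4637. Of the 31-base words in its 200-base centre, 41.8% occur more than once in the genome.

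No interval lay inside TGFB3 (chr14:76424440-76449354, minus strand). Of its 5 SOX2-only intervals, 4 lay 22.6 to 47.1 kb before its start, within the neighbouring gene IFT43. The strongest, chr14:76485089-76486430, had a total signal of 4591 and a width of 1342 bp, the widest interval of the 65. The fifth lay 41.0 kb past its start, in a stretch covered by both IFT43 and TTLL5. The single interval in the TGFB1 window, chr19:41769601-41770077, had a total signal of 3868. It lay within HNRNPUL1, 1.44 kb from the start of that gene and 89.99 kb from the start of TGFB1. It falls in the window because the TGFB1 gene record (chr19:41807492-41859827, minus strand) runs well past the end of its canonical transcript, and with the canonical transcript as the gene body TGFB1 had no interval of any class.

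**Figure D2:**
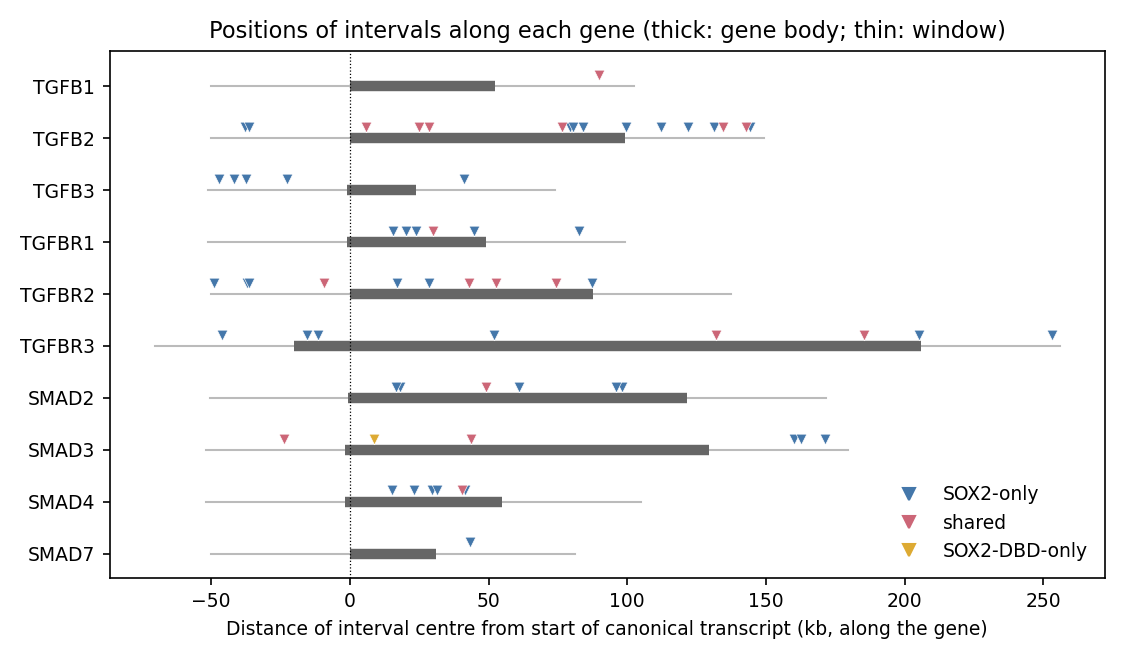
Position of each interval centre relative to the start of the canonical transcript, in kb along the direction of transcription, for the 10 genes (triangles coloured by class; thick bars, gene body; thin lines, window). Intervals of TGFBR1, SMAD2 and SMAD4 sit mostly inside the gene, those of TGFB3 outside it, and none of the triangles lies on the dotted line at the start.

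All 3 receptor genes had both SOX2-only and shared intervals. TGFBR2, the kinase that binds the ligand, had 6 SOX2-only and 4 shared intervals, or 5.33 SOX2 intervals per 100 kb (2.56 to 9.81), above 91.7% of all protein-coding genes. TGFBR1, its signalling partner, had 5 and 1, or 3.996 per 100 kb (1.47 to 8.70). TGFBR3 (betaglycan), a co-receptor that presents ligand to TGFBR2, had 6 and 2 in the longest window of the set, or 2.45 per 100 kb (1.06 to 4.84). The counting intervals of the 3 receptors overlap one another.

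At TGFBR2 (chr3:30648093-30735634, plus strand) the strongest shared interval lay before the gene, at chr3:30638473-30639022, 9.35 kb from its start, with a total signal of 4135. The other shared intervals lay in introns 2, 3 and 5, with total signals of 1555, 2906 and 1559. The intron 3 interval is the one with 2 AP-1 matches in the sequence printed above. The strongest SOX2-only interval, chr3:30676285-30676873, lay in intron 1 with a total signal of 3342. A pair of SOX2-only intervals 36.3 and 37.0 kb before the start lay only 79 bp apart.

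TGFBR1 (chr9:101866320-101916474, plus strand) held the only interval within 1 kb of an annotated coding-transcript start of any of the 10 genes. This SOX2-only interval, chr9:101890898-101891379, overlapped coding sequence in exon 2 and had a total signal of 1748. It lay 682 bp from the start of an alternative transcript and 23.7 kb from that of the canonical one, so it is not at the main promoter. The shared interval, chr9:101897217-101897737 in intron 3, had a total signal of 2399. The strongest SOX2-only interval, chr9:101882655-101883336 in intron 1, had 4123.

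At TGFBR3 (chr1:92145900-92371892, minus strand) the 2 shared intervals lay deep in the gene, in intron 4 (total signal 2368) and intron 14 (1612), 132.2 and 185.4 kb from the canonical start. Of the SOX2-only intervals, the strongest, chr1:92146120-92146672, lay in the last exon with a total signal of 3348. A further 2 lay ahead of the canonical start but inside the gene record, at 11.6 and 15.3 kb.

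Among the SMAD genes, the densities of SOX2 intervals lay between 0.763 per 100 kb at SMAD7 and 3.83 per 100 kb at SMAD4. The order was SMAD4 (1.41 to 8.34), SMAD2 at 2.70 (0.991 to 5.88), SMAD3 at 2.16 (0.702 to 5.04) and SMAD7 (0.0193 to 4.25). These counting intervals all overlap one another, those of SMAD4 and SMAD7 included. GC content over the window was 41.6% at SMAD4, 39.9% at SMAD2, 46.1% at SMAD3 and 51.0% at SMAD7, so the pair with more intervals had the lower GC content. The part of base composition in these densities was not tested.

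SMAD2 and SMAD3 are the transducers phosphorylated by TGFBR1. All 6 intervals of SMAD2 (chr18:45335328-45457517, minus strand) lay inside the gene, 5 of them SOX2-only and 1 shared. The shared interval, chr18:45407892-45408234 in intron 2, was weak for its class, with a total signal of 1367 at the 6.68 percentile of shared intervals. The strongest SOX2-only interval, chr18:45440066-45440775 in intron 1, had 3234.

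SMAD3 (chr15:67356101-67487511, plus strand) was the only gene of the set with a SOX2-DBD-only interval. That interval, chr15:67366310-67366755, lay in intron 1, 8.59 kb from the canonical start and 31.9 kb from the nearest interval of the SOX2 list. Its total signal of 2698 was at the 10.3 percentile of SOX2-DBD-only intervals, whose median was 4205, and its width of 446 bp was below their median of 1036.5 bp. The printed sequence holds 1 SOX core match and no AP-1 match. Further into the same intron, 43.6 kb from the start, lay the shared interval chr15:67401409-67401700 (total signal 3367) with 3 SOX core matches and 1 AP-1 match. The other shared interval lay 23.7 kb before the start, with 2138. No SOX2-only interval lay inside SMAD3, and the 3 in its window were over the neighbouring gene AAGAB. The strongest of them was chr15:67528848-67529860, with a total signal of 4676.

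SMAD4 (chr18:48554898-48611415, plus strand), the partner shared by the signalling SMADs, had 5 SOX2-only intervals and 1 shared interval, all inside the gene. The strongest SOX2-only interval of the set, chr18:48597727-48598587 in intron 10, had a total signal of 4935. It lay 482 bp from the shared interval chr18:48597039-48597244, whose total signal was 1465. Another SOX2-only interval, chr18:48585860-48586826, overlapped SMAD4 coding sequence and had 4710. SMAD7 (chr18:46446223-46477335, minus strand) had 1 SOX2-only interval, chr18:46433851-46434272, past its end and 43.3 kb from its start. Its total signal of 1233 was at the 2.89 percentile of SOX2-only intervals.

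**Figure D3:**
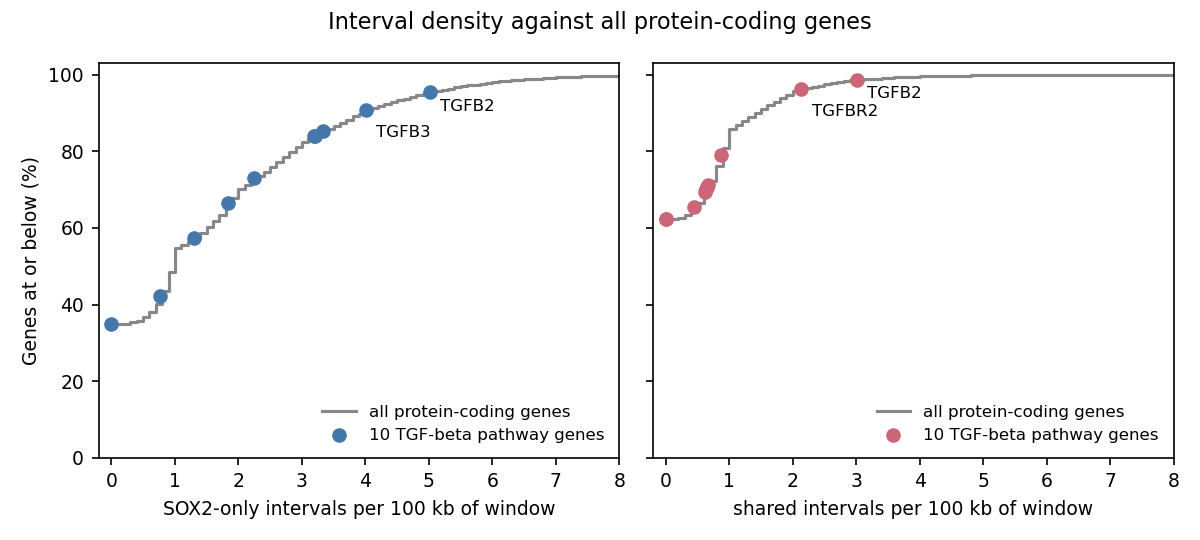
Percent of protein-coding genes (vertical axis) with a density at or below the value on the horizontal axis, in intervals per 100 kb of window, for SOX2-only (left) and shared (right) intervals; points are the 10 pathway genes. TGFB2 lies highest in both panels, at 5.02 SOX2-only and 3.01 shared intervals per 100 kb.

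Protein-coding genes were also ranked by the GC content of their windows and split into 10 equal parts, a comparison added after the densities were seen. The median density of SOX2 intervals was 3.45 per 100 kb in the second part, where TGFBR2 lies, and 0 in the ninth, where TGFB1 and SMAD7 lie. For TGFB1 and SMAD7 any interval at all exceeds a median of 0, so they are not counted. Of the other 8 genes, 6 had a density above the median of their own part. The exceptions were TGFBR3, at 2.45 against 2.49 per 100 kb, and SMAD2, at 2.70 against 3.19 per 100 kb. TGFB2 stood at 8.03 against 3.19 per 100 kb.

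Most intervals lay away from the starts of these genes. Of the 65 intervals, 1 lay within 1 kb and 5 within 5 kb of an annotated coding start of the gene. Of the 18 shared intervals, 13 had their centre in an intron and none in an exon, and the other 5 lay in the flanks. Of the 46 SOX2-only intervals, 24 lay in the gene bodies and 22 in the flanks. Of all 65, 13 had their centre inside another protein-coding gene, and for 53 the nearest coding gene start was that of the pathway gene. These counts were not made over all intervals, so whether such positions are particular to these genes was not tested. Counted by centre, the density of SOX2 intervals was 4.20 per 100 kb of gene body and 2.70 per 100 kb of flank, and over all protein-coding genes it was 2.74 and 1.77.

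A position noticed after the values were seen was the last exon, which carries the 3′ untranslated region. SOX2-only intervals overlapped the last exon of the canonical transcript in 5 of the 10 genes (TGFB2, TGFBR1, TGFBR2, TGFBR3 and SMAD2), against 6.29% of 19515 protein-coding genes. Last exons were longer in the set, with a median of 3.47 kb against 1.42 kb, and the longest, 32.99 kb, was that of SMAD2, which held 2 such intervals. Shared intervals overlapped none of the 10 last exons, against 1.35% of all. The part of exon length in the count was not tested.

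**Figure D4:**
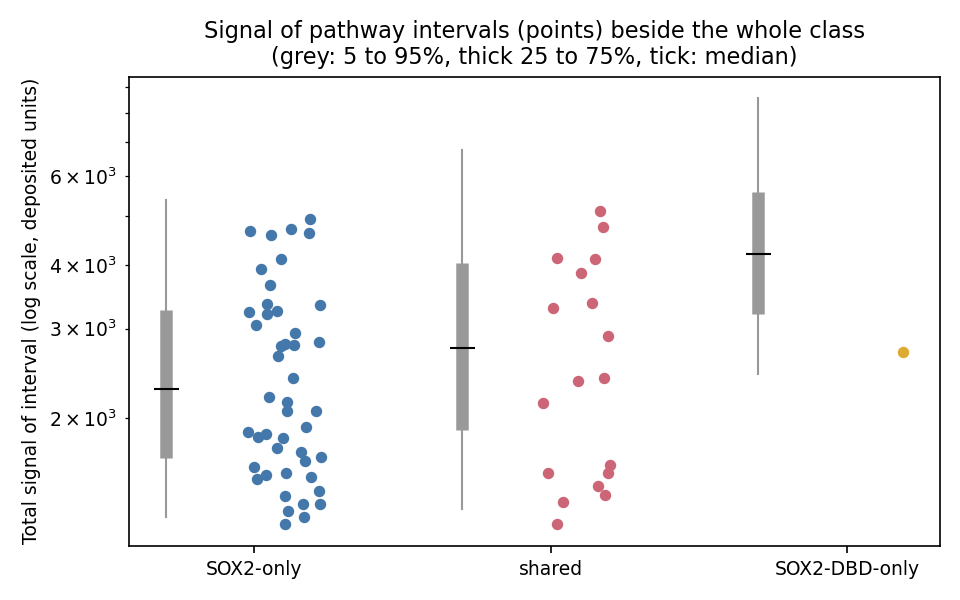
Total signal of each interval at the pathway genes (points, log axis, in the units of the deposited lists) by class, beside the whole class (thin grey line, 5th to 95th percentile; thick line, 25th to 75th; tick, median). The pathway points lie within the range of their class, and the SOX2-DBD-only point at 2698 lies in the lower part of its own.

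The signal of the pathway intervals was unremarkable within each class. Total signal ran from 1233 to 4935 with a median of 2106.5 in the 46 SOX2-only intervals, against a median of 2278 for all of that class. In the 18 shared intervals it ran from 1233 to 5118 with a median of 2383.5, against 2742. Median widths were 525 bp and 361 bp, against 559 bp and 373 bp. In 24.4% of all shared intervals the region of maximum signal lay outside the interval, against 0 of the 18. Widths in the whole shared class went down to 1 bp, so its values include intervals unlike these. Of the 64 SOX2 intervals, 45 (70.3%, 58.2 to 80.1) overlapped an interval of the list named as down-sampled, against 64.3% of the whole SOX2 list. The undescribed seventh column of the SOX2 list, present for shared intervals only, was 1 in 4 of the 18 (22.2%, 9.0 to 45.2) and 0 in the rest, whereas 34.5% of all shared intervals had at least 1.

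The SOX core motif was found in 24 of the 46 SOX2-only windows of 200 bp (52.2%, 38.1 to 65.9) and in 7 of the 18 shared windows (38.9%, 20.3 to 61.4). The shares of the whole classes were 46.9% and 48.3%, and windows 10 kb downstream of all intervals of these classes held it in 27.5% and 28.2%. Both intervals at the pathway genes include the share of the whole class, and that of the shared windows also includes the downstream share. At the pathway genes themselves, the windows 10 kb downstream held the motif in 11 of 46 (23.9%) for SOX2-only intervals and in 7 of 18 (38.9%) for shared intervals, the latter equal to the count at the centres. The shared count was 4 of 18 (22.2%) in windows centred where the signal peaked and 11 of 18 (61.1%) in windows of 400 bp.

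The AP-1 motif was found in 5 of the 46 SOX2-only windows (10.9%, 4.73 to 23.04) and 5 of the 18 shared windows (27.8%, 12.5 to 50.9), against 6.59% and 16.9% of the whole classes. In windows of 100 bp the shared count fell to 1 of 18 (5.56%). The 5 shared windows with the motif were at TGFB2 (25.0 kb from its start), TGFBR2 (intron 3), SMAD2 and SMAD3 (both shared intervals). The TEAD motif GGAATG (either strand), recognised by the factors of the Hippo pathway, was present in 8 of the 18 shared windows (44.4%, 24.6 to 66.3) and in 18.7% of all shared windows. In SOX2-only windows it was present in 9 of 46 (19.6%, 10.7 to 33.2), against 15.5%. The TEAD count in shared windows was the only one of those in the plot of motif shares whose interval lay wholly above the share of its class, and it was 1 of 6 motifs counted in each class. Windows 10 kb downstream of the pathway shared intervals held the TEAD motif in 4 of 18 (22.2%, 9.0 to 45.2), an interval that overlaps that of the centres. Downstream of all shared intervals the share was 10.7%.

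Motifs of the SMAD proteins themselves were counted as well. The SMAD box CAGAC (either strand) was present in 7 of the 46 SOX2-only windows (15.2%, 7.57 to 28.2) and 5 of the 18 shared windows (27.8%, 12.5 to 50.9), against 25.9% and 28.5% of the whole classes. The palindrome GTCTAGAC, a strong SMAD site, was in 0 of the 64 windows and in 0.109% of all SOX2 windows.

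**Figure D5:**
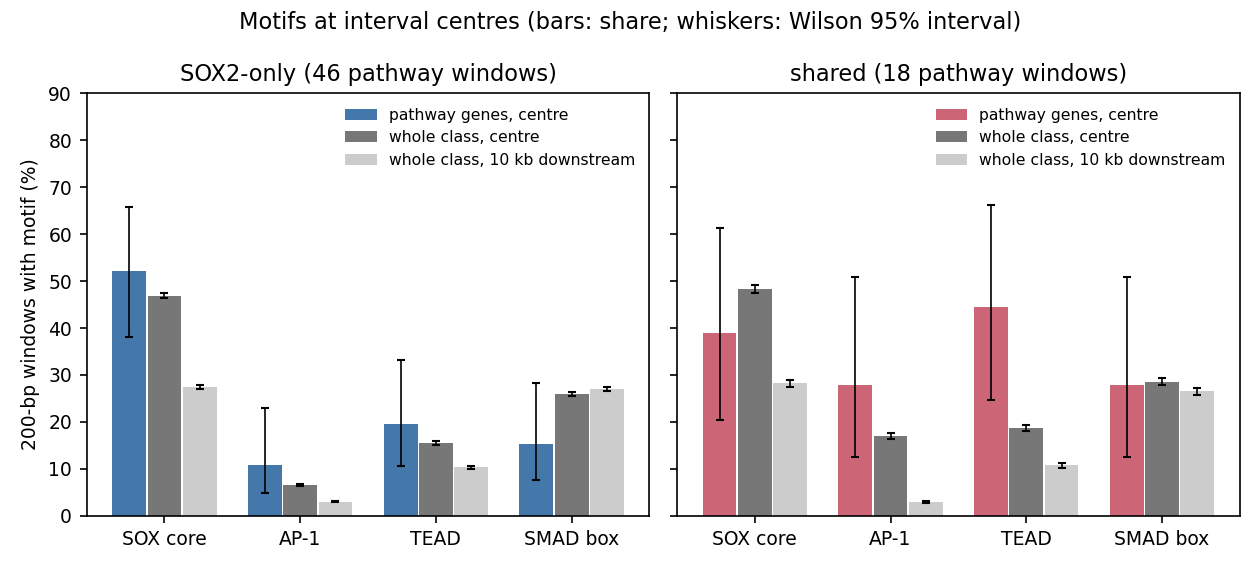
Percent of 200-bp windows with each motif for SOX2-only (left, 46 pathway windows) and shared (right, 18 pathway windows) intervals; coloured bars, pathway genes; dark grey, the whole class; light grey, windows 10 kb downstream of the whole class; whiskers, Wilson 95% confidence intervals. The TEAD bar of the shared pathway windows stands at 44.4%, above the 18.7% of the whole class.

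The wider pathway was examined through 5 lists of genes. The shares of all protein-coding genes with an interval, given above, were 65.1% for SOX2-only, 37.7% for shared and 4.73% for SOX2-DBD-only. A SOX2 interval of either class was present at 69.5% of them, so genes without one are common. Windows differed in length between genes, up to 552.6 kb at LTBP1. The part of window length in the shares of genes below was not tested. Among 19 genes known to respond to TGF-beta, 13 had a SOX2-only interval (68.4%), 12 a shared interval (63.2%) and 1 a SOX2-DBD-only interval (5.26%), so the first and the last share were near those of all genes. Their windows held 84 SOX2 intervals, of which 42 were shared (50%, 39.5 to 60.5, counting error only), whereas the shared portion of the whole list was 24.7%. This list of genes was chosen with earlier results of these data known, so the difference is a description and not a test. The genes with the most shared intervals per 100 kb were COL1A2, which encodes a chain of type I collagen, with 9 shared and 5 SOX2-only intervals, FN1 (fibronectin) with 8 and 4, and CCN2 (connective tissue growth factor) with 4 and 2. COL1A1, ID1 and JUNB had no interval of any class. The median density of shared intervals was 1.45 per 100 kb in this list and 0.648 per 100 kb at the ligand, receptor and SMAD genes.

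Of 11 genes for latency and activation of the ligands, 8 had a SOX2-only interval (72.7%, against 65.1% of all protein-coding genes), 5 a shared interval (45.5%, against 37.7%) and 2 a SOX2-DBD-only interval (18.2%, against 4.73%). Of their 71 SOX2 intervals, 23 were shared (32.4%, 22.7 to 43.9). The median densities were 2.49 SOX2 and 0 shared intervals per 100 kb, against 1.19 and 0 over all protein-coding genes. Per 100 kb of window the leading genes were DCN (decorin, which binds TGF-beta) with 4 shared intervals, LTBP1 (a latent TGF-beta binding protein) with 13 and the integrin gene ITGAV with 3. LTBP3, LTBP4 and NRROS had none of any class. Of 11 other receptor genes of the family, all had a SOX2-only interval (against 65.1%), 8 a shared one (72.7%, against 37.7%) and 0 a SOX2-DBD-only one (against 4.73%). Median densities in this list were 2.17 SOX2 and 0.495 shared intervals per 100 kb. Per 100 kb of window the activin receptor gene ACVR2A led with 5 shared intervals, before AMHR2 with 2 and ACVR1 with 2, and 16 of 72 SOX2 intervals of the list were shared (22.2%, 14.2 to 33.1).

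Of 18 other SMADs and SMAD regulators, 15 had a SOX2-only interval (83.3%, against 65.1%), 12 a shared (66.7%, against 37.7%) and 3 a SOX2-DBD-only interval (16.7%, against 4.73%). Of their 155 SOX2 intervals, 31 were shared (20%, 14.5 to 27.0). SMURF2, a ubiquitin ligase for pathway components, led per 100 kb with 5 shared intervals, before the corepressor gene TGIF1 with 3 and WWP1 with 4, while SKI and TGIF2 had none of any class. Of the 20 other ligand genes of the family, 10 had a SOX2-only interval (50%, against 65.1%), 7 a shared (35%, against 37.7%) and 1 a SOX2-DBD-only interval (5%, against 4.73%), so the shared and SOX2-DBD-only shares were near those of all genes. In this list 8 genes, among them AMH, BMP2 and BMP7, had none. Per 100 kb of window BMP5 led with 4 shared intervals, before BMP4 and GDF7 with 1 each in short windows, while BMP6 had 2 in a longer one. Its 11 shared of 38 SOX2 intervals came to 28.9% (17 to 44.8). Median densities in the list were 0.891 SOX2 and 0 shared intervals per 100 kb. The median GC content of the windows was 48.2% in this list, the highest of the 5, and its part in the counts was not tested.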

How the data were processed

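The deposited lists give each interval's position and, for the SOX2 and SOX2-DBD lists, its total and maximum signal as the authors made them, with the normalization not stated. Per the submitters' processing notes, Bowtie2 2.3.4.1, SAMtools, bedtools 2.27.1, SEACR 1.3 and deepTools 3.5.0 were used with build hg19. Thresholds, filters and pooling of replicates are not given in the sources used here. Rows repeated exactly (1654 per list) entered a single time. An interval belonged to a gene when it overlapped the gene record plus 50 kb by at least 1 bp. All 20136 protein-coding genes (1 record per symbol) were treated alike. Motifs were sought on both strands in 200-bp windows at interval centres of the GRCh37 sequence, 6 motifs in all, of which the SOX core and AP-1 motifs were planned. Shares have Wilson and densities exact Poisson 95% intervals, for counting error over intervals that are not replicates. Intervals named were, per gene and class, that of highest total signal, those within 1 kb of a coding-transcript start or on coding sequence of the gene, and every SOX2-DBD-only one. Up to 3 genes per pathway list were named by shared density, and up to 3 with no interval. Printed sequences followed the same rule, without untranslated regions, and 1 is not reported here. The genes, lists and motifs were chosen with earlier results of these data known. Counting and classing were tested on simulated data, where 500 of 500 windows gave the count found by brute force. The tools were samtools 1.23.1 and python 3.11.15 (scipy 1.17.1, numpy 2.4.6, pyfaidx 0.9.0.4, pandas 2.3.3, matplotlib 3.10.9).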

Additional observations from a re-analysis of the deposited data

How the results depend on the processing

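No paired analysis was possible because replicate 2 of either group carries no list among the files used here, and for the same reason none could be left out. Of 104 values under 15 alternatives, 87 stayed near the reported one (within 1.5 times for counts and medians, within the confidence interval for shares). A minimum width of 50 bp could not move a count, since the narrowest SOX2 interval had 205 bp. Rows as deposited and the interval centre inside the window gave the same counts at every gene. Confidence intervals of the shares were wide, so the 87 are a weak measure of stability. The canonical transcript as gene body and the set without TGFB2 were added after the data were seen. By construction, the gene body alone and a flank of 10 kb left 25 SOX2-only intervals each. In both settings TGFB1, TGFB3 and SMAD7 had no interval of any class. The order of the genes by density of SOX2 intervals also changed. With the gene body alone it was SMAD4 at 10.6, TGFBR1 at 9.97, TGFB2 at 8.06 and TGFBR2 at 6.85 per 100 kb. With a flank of 10 kb, SMAD4 (7.84) and TGFBR1 (7.13) again stood above TGFB2 (6.71). The first place of TGFB2 therefore holds for the wider windows only. A flank of 100 kb gave 4 SOX2-DBD-only intervals, and the median density of shared intervals was then 0.398 per 100 kb. With the upper 50% of each list by total signal, 21 SOX2-only, 9 shared and 0 SOX2-DBD-only intervals remained, 5 genes had a shared interval, and the medians were 1.32 SOX2 and 0.216 shared intervals per 100 kb, against 0.581 and 0 over all protein-coding genes. With the down-sampled list in place of the SOX2 list, 6 intervals counted as SOX2-DBD-only, 5 genes had a shared interval, and the medians were 2.03 and 0.225 per 100 kb, against 0.858 and 0 over all. The SOX core motif was in 28.3% of SOX2-only windows of 100 bp and 76.1% of those of 400 bp. The AP-1 motif was in 5.56% of shared windows of 100 bp. The part of window length in these shares was not tested. The unknown depth limits every count, since a deeper library yields more intervals.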

Other observations

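The list named as down-sampled held 46 intervals in the windows of the 10 genes, and 1 of them overlapped no interval of the SOX2 or SOX2-DBD list. It lay 135.8 kb from the start of TGFB2, at chr1:218654013-218654868 (856 bp), past the end of the gene.

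With the flank widened to 100 kb, SOX2-DBD-only intervals appeared at TGFB2, SMAD4 and SMAD7, 1 at each, beside the 1 at SMAD3.

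Of the 18 shared windows at these genes, 17 held no 31-base word that occurs more than once in the genome, and of the 46 SOX2-only windows, 41 held none.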
